A study of Mus musculus with 65 samples.

Results

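Sgk1, Fkbp5 and Glcci1 are genes whose transcripts are induced by glucocorticoids, and their signals were followed in the spinal cord of mice that differed in age, diet and sex. Every array feature (a spotted cDNA clone) whose platform annotation gave 1 of these symbols was taken. This found 3 features for 3 genes, among 8448 features of which 4875 carried a single symbol and covered 4209 genes. Each gene was represented by 1 clone, namely feature 11930 for Sgk1, 12641 for Fkbp5 and 16186 for Glcci1, so no second clone could check any of them. The genes were chosen by values of these same data, above all the difference of Sgk1 between diets and that of Glcci1 between juvenile and adult mice. Differences between diets are therefore given for them as descriptions with a standard error (SE) and no test. Those between juveniles and adults are given as ranges and plain means, also with no test.

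Glucocorticoids, of which corticosterone is the main one in mice, bind the glucocorticoid receptor, which is held by Hsp90 and its co-chaperones in the cytoplasm and moves to the nucleus to bind DNA at glucocorticoid response elements. Sgk1 encodes the serum- and glucocorticoid-regulated kinase 1, which acts in the phosphoinositide 3-kinase pathway and, through the ubiquitin ligases of the Nedd4 family, keeps ion channels at the cell surface. Fkbp5 encodes FKBP51, an Hsp90 co-chaperone that lowers the affinity of the receptor for its hormone and so closes a feedback loop. Glcci1 was named as a transcript that glucocorticoids induce in thymocytes. Food restriction is known to raise circulating corticosterone in rodents, but no hormone level was part of the data analysed here.

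The mice were C57BL/6 animals of a single colony and carried no transgene or other allele named in the labels. By the study's methods mice were housed individually, but these methods name only cohorts of 6, 16 and 24 months. Mice on caloric restriction (CR) were fed like the others until early adulthood and then received a fortified ration that was lowered in steps. Mice fed ad libitum (AL) had regular feed throughout. The groups were AL juveniles of 17 to 44 days (n = 10), CR mice (n = 8) and AL mice (n = 10) of 6 months, CR mice (n = 10) and AL mice (n = 10) of 16 months, and CR mice (n = 7) and AL mice (n = 10) of 24 months. Males and females were equal in number except among CR mice of 6 months (3 males, 5 females) and of 24 months (3 males, 4 females). The mice of 6 months were 169 to 194 days old and those of 16 months 472 to 499 days old. At 24 months the CR mice were 673 to 743 days old and the AL mice 704 to 743 days old. The 3 CR males of that class were all 673 days old, and its AL males were 714 to 743 days old. In males of 24 months diet and age in days therefore cannot be told apart. According to the same methods mice were killed at the same time of day, and juveniles are not mentioned there. Each of the 65 mice gave 1 filter array, and each value is a Z score, in which 0 is the mean and 1 the SD of all features on that array. Since the spinal cord was taken whole, fewer cells of a type and less RNA per cell cannot be told apart.

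By their first principal component 41 arrays formed a first run and 21 a second, a division for which the labels hold no name, and arrays 31 to 33 stood apart from both. The word run names only this division of the values, and no label says that filters were hybridized in separate series. By array number, 1 to 21 and 44 to 65 fell in the first run. Those from 22 to 30, from 34 to 43, and 66 and 67 fell in the second. Those 3 arrays held RNA of 2 CR mice (male on array 31, female on array 32) and of an AL male (array 33), all of 6 months. The neuronal markers measured were 3 of 13 genes in 4 features, namely Nefl (features 8738 and 8756), Uchl1 and Slc17a6. Their summed Z score was -1.09 to -0.73 on these 3 arrays, against 1.95 to 2.98 on the other 15 arrays of 6 months. Slc17a6 was not lower at 6 months, these arrays included. It averaged -0.2325 in CR and -0.171 in AL mice, against -0.252 and -0.332 at 16 months. The myelin marker measured, Gsn, was at -0.76 to -0.31 on the 3 arrays, against 0.07 to 0.44 on the others. On array 33 the summed blood markers (16 features) were at -1.89, against 9.07 or more in the other AL mice of 6 months, the microglial sum was at -0.89, against -0.49 or more, and the muscle marker was at 1.0, against 0.52 or less. The astrocyte sum was at 0.30 on array 33, against -0.30 to 0.24 in the other AL mice of 6 months. On arrays 31 and 32 it was at -0.23 to -0.01, against -0.26 to -0.01 in the other CR mice. Of the myelin markers 1 of 12 was measured, of the astrocyte markers 2 of 10, of the microglial markers 3 of 9 and of the endothelial markers 0 of 6, so the makeup of the tissue could be checked only in part. The 5th percentile of all features was -1.46, -1.41 and -1.45 on arrays 31, 32 and 33. It was -1.65 to -1.58 in AL mice of 16 months and -1.65 to -1.52 in those of 24 months. The 10th percentile differed less. With these arrays included it was -1.21 to -1.15 in CR and -1.21 to -1.16 in AL mice of 6 months, against -1.22 to -1.15 in AL mice of 16 months. The part of these tails in low signals such as Sgk1 was not tested. The second run held 0 of the 8 CR mice of 6 months and 1 of the 10 AL mice, 3 and 4 of 10 at 16 months, and 3 of 7 and 6 of 10 at 24 months. Results that rest on these arrays or runs are given with and without them.

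The promoters were searched for the letters that the glucocorticoid receptor is known to bind, and the window that holds them in full is shown. RefSeq promoter windows (GRCm38.p6, from 250 bases before a transcript start to 50 after it) matched all 3 symbols, with 6 windows for Sgk1, 1 for Fkbp5 and 2 for Glcci1. They were searched on both strands for the palindromic consensus of the glucocorticoid response element, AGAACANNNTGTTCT, and for its half-site AGAACA, which reads TGTTCT on the other strand and is contained in the palindrome. The complete palindrome was found in 1 of the 6 Sgk1 windows, as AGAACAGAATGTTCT from base 189 to base 175 before the start site. It was present in 3 of all 32851 windows (0.00913%). The half-site was found in 3 of 6 Sgk1 windows, 0 of 1 Fkbp5 windows and 0 of 2 Glcci1 windows, and in 19.0% of all windows. The 250 bases before the Sgk1 start site at position 21993890 (chr10:21993640-21993889, plus strand) follow, with the half-sites in capitals:
Sgk1: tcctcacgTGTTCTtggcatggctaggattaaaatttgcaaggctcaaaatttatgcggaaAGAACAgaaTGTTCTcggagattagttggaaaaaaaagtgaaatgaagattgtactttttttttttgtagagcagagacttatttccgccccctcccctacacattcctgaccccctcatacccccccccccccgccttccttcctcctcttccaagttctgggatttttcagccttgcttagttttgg
A match is a description of the letters in a window. Response elements outside these windows, such as those in introns that are known for Fkbp5, were not searched.

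All 3 transcripts gave signals below the mean of the array. Averaged over the 65 mice, the Z score was -1.30 for Sgk1, which placed it at percentile 7.78 of all features, -0.627 for Fkbp5 (percentile 24.8) and -0.198 for Glcci1 (percentile 43.0). Their residual SDs between mice of the same group and sex were 0.159, 0.138 and 0.151. The study's own selection kept only genes with an average above 0, and none of the 3 features meets that condition. The paper gives the purpose of this step as avoiding spurious picks among genes expressed low against the background. The diet differences of Sgk1 thus rest on a signal that this step would leave out.

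Sgk1 was higher in CR mice at 6 and 16 months. At 6 months the Z scores of the 3 CR males were -0.82, -0.97 and -0.89, against -1.51, -1.49, -1.10, -1.46 and -1.56 in the 5 AL males. Those of the 5 CR females were -1.01, -1.18, -0.94, -1.01 and -1.12, against -1.40, -1.29, -1.72, -1.42 and -1.61 in the 5 AL females. Within each sex the CR mice lay wholly above the AL mice, as they did for 0.722% of all features in males and 0.189% in females. All 8 CR mice were above the AL mean and 6 of 8 were above the highest AL mouse, the male on array 33. How many features share these counts was not determined, and no feature of the array (0%) separated the groups completely with both sexes pooled. Group means were -0.993 ± 0.117 in CR mice and -1.46 ± 0.172 in AL mice (SD, n = 8 and 10), and the fitted difference was 0.483 (SE 0.0763). Without arrays 31 to 33 the difference was 0.529 and the groups did not overlap, with 6 CR mice between -1.18 and -0.82 and 9 AL mice between -1.72 and -1.29. Over all features, 0.0118% (1 of 8448, Sgk1 itself) had CR mice wholly above AL mice on these arrays. Within the first run alone the means were -1.005 in 6 CR mice and -1.47 in 8 AL mice. Of the neuronal markers all 4 features had negative CR minus AL differences at 6 months over all arrays (median -0.125, none past the threshold). Without arrays 31 to 33 their summed Z score averaged 2.62 in CR mice and 2.50 in AL mice. The part of tissue makeup in the Sgk1 difference was not tested.

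At 16 months Sgk1 was again higher in most CR mice, with overlap between the groups. The 5 CR males had Z scores of -0.99, -1.12, -1.08, -1.05 and -1.02, against -1.19, -1.46, -1.37, -1.30 and -1.41 in the 5 AL males, so that the males of the 2 diets did not overlap, which held for 0.189% of all features in this direction. The 5 CR females had -0.94, -1.38, -1.21, -1.07 and -1.55, against -1.44, -1.40, -1.58, -1.32 and -1.47 in the 5 AL females. In females 2 CR mice lay within the AL range and 3 above it. Over both sexes 9 of 10 CR mice were above the AL mean and 7 of 10 above the highest AL mouse. The share of all features with these counts was not determined. Group means were -1.14 ± 0.190 in CR mice and -1.39 ± 0.107 in AL mice (SD, n = 10 each), and the fitted difference was 0.253 (SE 0.0706). It was 0.249 within the first run (7 CR and 6 AL mice) and 0.229 within the second (3 CR and 4 AL mice).

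At 24 months the CR mice divided. The 7 CR mice had Z scores of -1.35, -1.38 and -1.50 in males and -1.0, -0.92, -1.46 and -1.55 in females. The AL mice had -1.20, -1.11, -1.58, -1.17 and -1.26 in males and -1.39, -1.44, -1.29, -1.34 and -1.49 in females. Both of the high CR females exceeded every AL mouse, and the other 5 CR mice were all below the AL mean. How many features divide in this way was not determined. Group means were -1.31 ± 0.249 in CR mice and -1.33 ± 0.150 in AL mice (SD, n = 7 and 10), and the fitted difference was 0.00575 (SE 0.0783). The high females were on the second run, where CR mice averaged -1.10 (n = 3) and AL mice -1.36 (n = 6), a difference of 0.262. On the first run CR mice averaged -1.465 (n = 4) and AL mice -1.275 (n = 4), a difference of -0.190. The value at 24 months thus joined opposite differences on the 2 runs, and the part of the run in it was not tested.

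**Figure D1:**
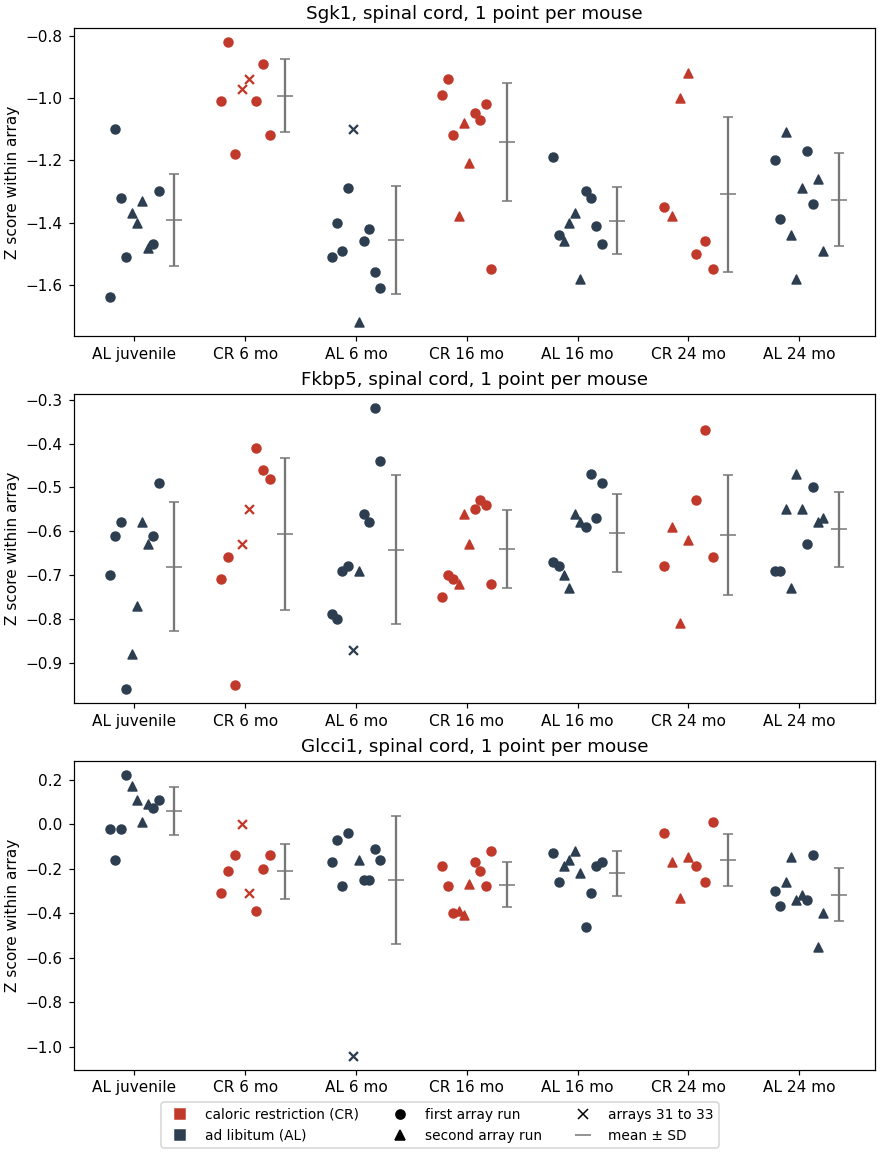
Z scores (y axis) of Sgk1, Fkbp5 and Glcci1 in each of the 65 mice by group (x axis), with circles and triangles for the first and second array run, crosses for arrays 31 to 33 and grey bars for the mean ± SD. Sgk1 of CR mice lies at -1.18 or above at 6 months and reaches down to -1.55 at 16 and 24 months, the Fkbp5 groups overlap throughout, and Glcci1 is highest in juveniles.

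Fitted over all arrays, the diet difference of Sgk1 was smaller at each later age, but this did not hold within both runs. In the first run the plain differences were 0.4625, 0.249 and -0.190 at 6, 16 and 24 months, and in the second run they were 0.229 at 16 months and 0.262 at 24 months. Over all arrays, set against that at 6 months it was 0.230 lower at 16 months (fitted difference of differences -0.230, SE 0.104) and 0.478 lower at 24 months (-0.478, SE 0.109), again as a description. By sex the CR minus AL differences were 0.531 in males and 0.436 in females at 6 months, 0.294 and 0.212 at 16 months, and -0.146 and 0.158 at 24 months. The CR males of 24 months were also younger than the AL males of that class. Plain means of CR mice fell by 0.149 between 6 and 16 months and by 0.168 between 16 and 24 months, whereas AL means were 0.0620 and 0.0670 higher over the same steps. Within the first run the step of the CR mean between 16 and 24 months was -0.359, and within the second run it was 0.123. Averaged over the ages, the CR minus AL difference of Sgk1 was 0.247 (SE 0.0434).

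Ordered by mean, the Sgk1 levels ran from CR mice of 6, 16 and 24 months through AL mice of 24 months, juveniles and AL mice of 16 months to AL mice of 6 months at the low end. Each of the 6 gaps between neighbours in this order was smaller than the larger of their SDs, the widest being 0.168 between CR mice of 16 and of 24 months. Juveniles had Sgk1 Z scores with a lowest value of -1.64, a median of -1.385 and a highest value of -1.10, within the range of the adult AL mice.

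For CR against AL at 6 months 0.0237% of all features (2 of 8448, both higher in CR) were past an adjusted p of 0.05 in limma. This count includes Sgk1, for which it is no test because the gene was chosen by this contrast, and the other feature was that of the activity-induced kinase gene Plk2 (0.494, SE 0.0958, adjusted p = 0.0151 in limma). At 16 and at 24 months 0 features passed, with 63 (0.746%) and 627 (7.42%) at an unadjusted p under 0.05. Over the 3 ages together the count was again 2 (0.0237%, 1 in each direction). Beside Sgk1, for which it is likewise no test, it held Id2, an inhibitor of basic helix-loop-helix factors, which fell (-0.157, SE 0.0324, adjusted p = 0.0483 in limma). An unadjusted p under 0.05 was reached by 897 features (10.6%) over the 3 ages and by 656 (7.77%) at 6 months. Without arrays 31 to 33, 1 of 8448 features passed at 6 months and 1 over the 3 ages, each higher in CR mice. Plk2 and Id2 then no longer passed.

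**Figure D2:**
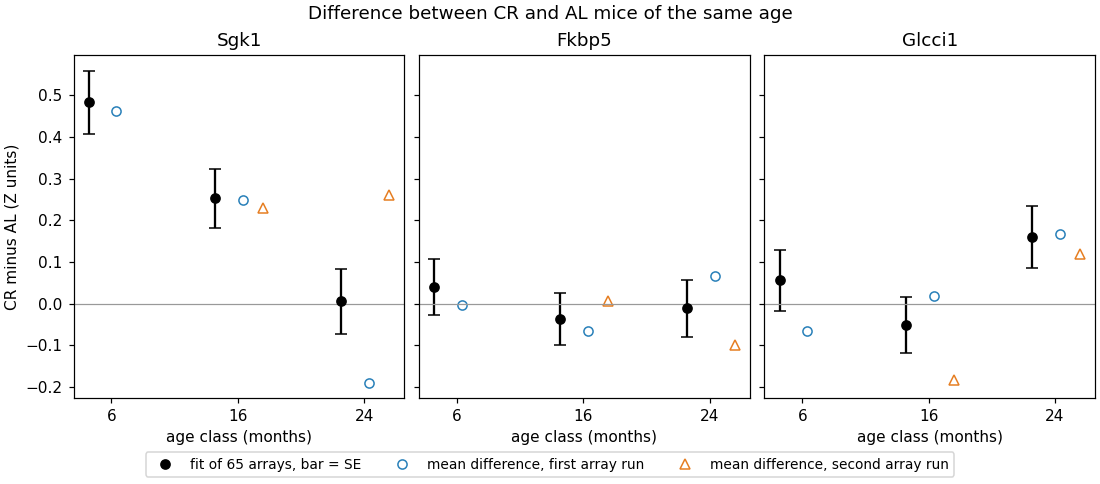
CR minus AL difference in Z units (y axis) of the 3 genes at 6, 16 and 24 months (x axis). Filled points are the fit of all 65 arrays with SE bars, and open symbols are plain mean differences within an array run. For Sgk1 the fitted values are 0.483, 0.253 and 0.00575, and at 24 months the runs give -0.190 and 0.262.

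The Fkbp5 differences between diets were within 1 SE of 0 at each age. At 6 months its Z scores had a lowest value of -0.95, a median of -0.590 and a highest value of -0.41 in 8 CR mice, against -0.87, -0.685 and -0.32 in 10 AL mice. At 16 months these were -0.75, -0.665 and -0.53 in 10 CR mice, against -0.73, -0.585 and -0.47 in 10 AL mice. At 24 months they were -0.81, -0.620 and -0.37 in 7 CR mice, against -0.73, -0.575 and -0.47 in 10 AL mice. The ranges overlapped at each age, and a single CR mouse of 24 months was above its AL group. The fitted CR minus AL differences were 0.0403 (SE 0.0668), -0.0370 (SE 0.0618) and -0.0115 (SE 0.0685) at the 3 ages and -0.00272 (SE 0.0380) over them. Plain differences within runs kept no sign, with -0.00417 in the first run at 6 months, -0.0645 and 0.00583 in the first and second run at 16 months, and 0.0675 and -0.0983 at 24 months.

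In juveniles Fkbp5 had a lowest value of -0.96, a median of -0.620 and a highest value of -0.49, so that the lower end of the range was held by juveniles and by CR mice of 6 months. The 5 juveniles of 33 to 44 days averaged -0.602 ± 0.0766 and the 5 of 17 to 21 days averaged -0.760 ± 0.165 (SD). The 7 group means lay between -0.681 ± 0.147 in juveniles and -0.596 ± 0.0863 in AL mice of 24 months (SD, n = 10 each), and each gap between neighbours in their order was at most 0.0390 and below the larger SD.

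Glcci1 was highest in juveniles, which chose it, and its adult levels differed little. The 10 juveniles had Z scores between -0.16 and 0.22 with a median of 0.0800. None of the 55 adults reached that median, the highest adult value being 0.01 in a CR female of 24 months, and 17 of 55 were at or above the lowest juvenile. The share of all features with such counts was not determined. AL mice of 6 months minus juveniles gave -0.311, with 27 of 8448 features at or below it. Without arrays 31 to 33 it was -0.224, with 182 features at or below it. The part of filter position in this step was not tested. Juveniles of 33 to 44 days averaged 0.0460 ± 0.0619 and those of 17 to 21 days 0.0700 ± 0.150 (SD, n = 5 each), a gap smaller than the SD of the younger mice. The gap of 0.219 between juveniles and the next group, CR mice of 24 months, was the only 1 of the 6 gaps between neighbouring group means that exceeded the larger SD, against at most 0.0511 for the others.

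At 6 and 16 months the CR minus AL differences of Glcci1 were smaller than their SE, and that at 6 months depended on single arrays. The 8 CR mice of 6 months ranged from -0.39 to 0, with a median of -0.205. The 10 AL mice ranged from -1.04 to -0.04, with a median of -0.165. The value of -1.04 was that of the male on array 33, and the next lowest AL value was -0.28. The fitted difference was 0.0557 (SE 0.0726) with all arrays and -0.0558 without arrays 31 to 33, so the sign of it rested on them. At 16 months the CR mice ranged from -0.41 to -0.12 with a median of -0.275 and the AL mice from -0.46 to -0.12 with a median of -0.190, and the difference was -0.0510 (SE 0.0672), with 0.0176 within the first run and -0.184 within the second.

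At 24 months Glcci1 was higher in 6 of 7 CR mice than the AL mean, a count whose share among all features was not determined. The CR mice had -0.04, -0.17 and -0.19 in males and -0.33, -0.15, -0.26 and 0.01 in females. The AL mice had -0.30, -0.26, -0.34, -0.34 and -0.55 in males and -0.37, -0.15, -0.32, -0.14 and -0.40 in females. In males the 2 diets did not overlap, which held for 1.93% of all features in this direction, whereas in females 3 of 4 CR mice lay within the AL range. The CR males were also younger (673 days, against 714 to 743 days), so diet and age cannot be told apart in males. Group means were -0.161 ± 0.118 in CR mice and -0.317 ± 0.119 in AL mice (SD, n = 7 and 10), the fitted difference was 0.159 (SE 0.0745), and it lay at percentile 95.7 of all features. It was 0.168 within the first run and 0.120 within the second. With each array centred on features at the same place in the printing order (the remainder of the feature number by 22), it was 0.101.

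Sex was not used to choose the genes and was tested. Adult age was tested as well, but the genes were chosen with earlier results over the stage and diet groups known. The p-values for adult age and for the sex difference of the CR effect are therefore not independent of that choice. Sgk1 averaged -1.24 ± 0.219 in 26 adult males and -1.31 ± 0.226 in 29 adult females (SD), with a fitted difference of 0.0742 (SE 0.0434, adjusted p = 0.984 in limma). For Fkbp5 the males were at -0.612 ± 0.113 and the females at -0.622 ± 0.132, and for Glcci1 at -0.269 ± 0.201 and -0.223 ± 0.108. The male minus female differences were 0.0129 (SE 0.0380) and -0.0293 (SE 0.0413), and neither passed (adjusted p = 0.998 and 0.984 in limma). None of the 8448 features passed for sex (0%), and 291 (3.44%) had an unadjusted p under 0.05.

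The CR effect in males minus that in females, over the adult ages, was -0.0423 (SE 0.0867, adjusted p = 0.970 in limma) for Sgk1, 0.0339 (SE 0.0760, adjusted p = 0.972) for Fkbp5 and 0.148 (SE 0.0826, adjusted p = 0.953) for Glcci1. The unadjusted p of Glcci1 in limma was 0.0784, and its difference was 0.0652 without arrays 31 to 33. Array 33 lowered the AL males of 6 months, in which Glcci1 averaged -0.370, against -0.2025 in the 4 males left without it. For this contrast too 0 of 8448 features passed (0%), with 266 (3.15%) at an unadjusted p under 0.05.

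Between adult ages, averaged over both diets, none of the 3 genes passed the threshold. As stated above, their p-values here are not independent of the choice of the genes, so they serve only as a description. The difference of Sgk1 between 16 and 6 months was -0.0532 (SE 0.0520), and that between 24 and 16 months was -0.0566 (SE 0.0527), with adjusted p = 0.615 and 0.869 in limma. Averaging joined the lower CR and higher AL means given above. For Fkbp5 the same differences were -0.000667 (SE 0.0455) and 0.0208 (SE 0.0462), with adjusted p = 0.993 and 0.932 in limma. For Glcci1 they were -0.0213 (SE 0.0495) and 0.00904 (SE 0.0502), with adjusted p = 0.864 and 0.975 in limma. By the same test 7 features (0.0829%) passed between 16 and 6 months, all higher at 16 months. Ganab, a subunit of glucosidase II, had the smallest adjusted p among them. At an unadjusted p under 0.05 there were 1565 (18.5%). The count of 7 fell to 0 with each array centred on filter position and ran from 3 to 147 without 1 mouse. The part of filter position in these calls was not tested further. Between 24 and 16 months 0 passed (0%), with 400 (4.73%) at that unadjusted limit.

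Whether the genes varied together among mice of the same group was asked of their deviations from the mean of each group and sex, in 3 pairs. Sgk1 and Glcci1 had r = -0.357 over 65 mice (permutation test, two-sided, p = 0.00374, adjusted p = 0.0112 over the 3 pairs) and Spearman's rho = -0.226 (permutation p = 0.0690, adjusted p = 0.207). Without the 2 mice farthest from the Sgk1 median r was -0.302. Within the first run r was -0.352 (n = 41, permutation p = 0.0244, adjusted p = 0.0733) and within the second 0.0312 (n = 21, permutation p = 0.894). Without arrays 31 to 33 it was -0.224 (n = 62, adjusted permutation p = 0.240). The relation therefore did not hold in both runs, and it was past the threshold only with the 3 arrays that stood apart and only by Pearson's r. Sgk1 and Fkbp5 had r = -0.0891 (rho = -0.0186, permutation p = 0.482 and 0.883), with 0.0254 and -0.225 within the runs. Fkbp5 and Glcci1 had r = 0.0187 (rho = -0.151, permutation p = 0.882 and 0.230), with -0.174 within each run. Left without the 2 farthest mice, these pairs had r = -0.131 and -0.0286.

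**Figure D3:**
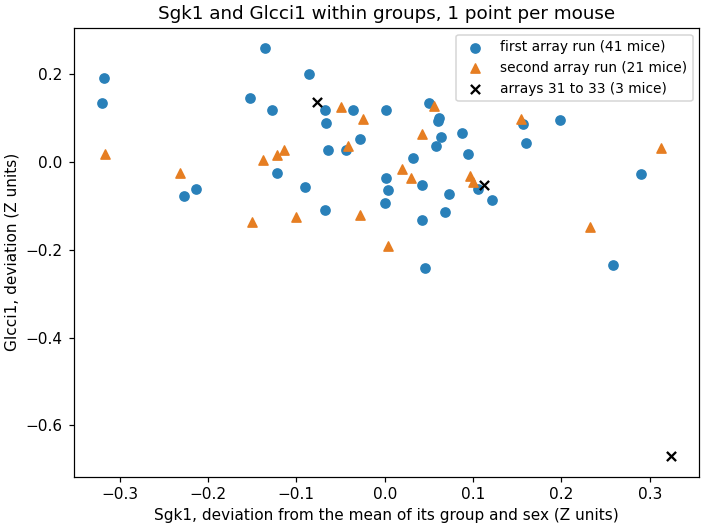
Deviation of Glcci1 (y axis) against that of Sgk1 (x axis) from the mean of each mouse's group and sex, in Z units, 1 point per mouse, with symbols for the 2 array runs and crosses for arrays 31 to 33. Array 33 lies alone at the lower right, and over all 65 mice r is -0.357, against -0.224 without the 3 arrays.

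The features most like each gene were ranked by Pearson's r over the 62 arrays other than 31 to 33, after each run was centred on its mean, as a description over arrays that share groups and filter effects. For Sgk1 the 5 with a single symbol and the highest r were Thnsl1 (0.500), Selplg (0.472), Gpbp1 (0.458), Zfp398 (0.454) and Sidt2 (0.447), and the CR minus AL difference of Thnsl1 was 0.202 at 6 months and 0.0950 at 16 months. For Fkbp5 they were Commd7 (0.685), B3gat3 (0.655), Ccs (0.653), Mogs (0.652) and Xkr8 (0.643). Features 12644, 12635 and 12603, those of Commd7, Ccs and Xkr8, are numbered close to the Fkbp5 feature 12641. For Glcci1 they were Dnajc15 (0.646), Syce1 (0.602), Fchsd2 (0.568), Suclg2 (0.567) and Septin2 (0.567).

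For Glcci1 the place on the filter moved with the ranking. Mean Z scores of features 22 numbers apart correlated at 0.525 over all features, and 4 of the 5 features most like Glcci1 (all but Suclg2) had the same remainder by 22 as Glcci1, namely 16. These 4 had CR minus AL differences of 0.152, 0.154, 0.103 and 0.181 at 24 months, close to the 0.159 of Glcci1. For Sgk1 none of the 5 features shared its remainder of 6, and for Fkbp5 none shared its remainder of 13. The part of filter position in the Glcci1 values was not tested beyond the centred difference above. Sgk1, Fkbp5 and Glcci1 were not among each other's most similar features, with r = -0.306 between Sgk1 and Glcci1 and -0.287 between Fkbp5 and Glcci1.

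The wider glucocorticoid pathway was covered by 4 lists with 98 genes, of which 26 were measured, including the 3 described. The other 23 genes had 26 features, and 0 of them passed in any of the 8 contrasts in limma. For CR against AL, 2, 0 and 3 of the 26 features had an unadjusted p under 0.05 at 6, 16 and 24 months, against 7.77%, 0.746% and 7.42% of all features. Their median differences were 0.00550, -0.00450 and -0.000792 at the 3 ages, and the medians over all features were within 0.00158 of 0. The differences ran from -0.170 to 0.174 at 6 months and from -0.124 to 0.0800 at 16 months, and the Sgk1 values at those ages, which chose the gene, lay above both ranges. At 24 months they ran from -0.321 to 0.207, and the Sgk1 value of 0.00575 lay within them.

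Among the receptor and its helpers (10 of 22 genes measured, 9 without Fkbp5), the receptor gene Nr3c1, named for its role, had CR minus AL differences of -0.0420 (SE 0.0682), 0.0250 (SE 0.0631) and 0.0120 (SE 0.0700) at 6, 16 and 24 months. The constitutive chaperone Hspa8 gave 0.174 (SE 0.0759) at 6 months by 1 clone and -0.170 (SE 0.0922) by another, with adjusted p = 0.583 and 0.649 in limma. Ppp5c, the phosphatase that binds Hsp90 beside the receptor, had 0.0940 (SE 0.0496) at 6 months. Ptges3, the Hsp90 co-chaperone p23, had the smallest p of the list at 24 months (0.159, SE 0.0485, adjusted p = 0.634 in limma), followed by the chromatin remodelling ATPase Smarca4 (0.207, SE 0.0784, adjusted p = 0.634). At 16 months the receptor coactivator Ncoa1 had -0.0700 (SE 0.0890). The median of the list was 0.0292, -0.00350 and -0.00967 at the 3 ages.

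Other genes known to be induced by glucocorticoids (5 of the 8 measured from a list of 40) had 0 features past the threshold in either direction. Their 6 features had median CR minus AL differences of 0.00667 at 6 months, -0.0245 at 16 months and -0.0114 at 24 months. Arrdc2, an arrestin-domain gene, had -0.0777 (SE 0.0796) at 6 months. Bnip3l, a mitophagy receptor, had -0.0500 (SE 0.0523) and 0.0283 (SE 0.0468) by its 2 clones at 6 months and -0.0149 (SE 0.0537) and 0.111 (SE 0.0480) at 24 months. Cdkn1c, the cyclin-dependent kinase inhibitor p57, had -0.321 (SE 0.233) at 24 months, the widest error of the list.

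Of the kinases, activators and substrates around SGK (6 of 25 genes measured, 5 without Sgk1), Nedd4, a ubiquitin ligase whose relative Nedd4l is the usual target of SGK1, had CR minus AL differences of -0.108 (SE 0.0506) at 6 months and -0.0805 (SE 0.0520) at 24 months. Gsk3b, a kinase that SGK1 can phosphorylate, had 0.0993 (SE 0.0566), 0.0800 (SE 0.0524) and 0.0963 (SE 0.0581) at the 3 ages by 1 clone, and -0.0177, 0.0330 and -0.0108 by the other. Foxo1, a transcription factor of the family that SGK1 and Akt keep out of the nucleus, had -0.0250 (SE 0.0472) at 16 months. In the FK506-binding protein family (5 of 15 genes measured, 4 without Fkbp5), Fkbp3 had 0.126 (SE 0.0654) and Fkbp1a, the target of FK506, had -0.113 (SE 0.0782) at 6 months. Fkbp11 had -0.0670 (SE 0.0826) at 16 months and 0.113 (SE 0.0915) at 24 months, and Fkbp9 had 0.0345 (SE 0.0469) at 24 months. All of these features missed the threshold, with adjusted p of 0.583 or above at each age in limma.

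**Figure D4:**
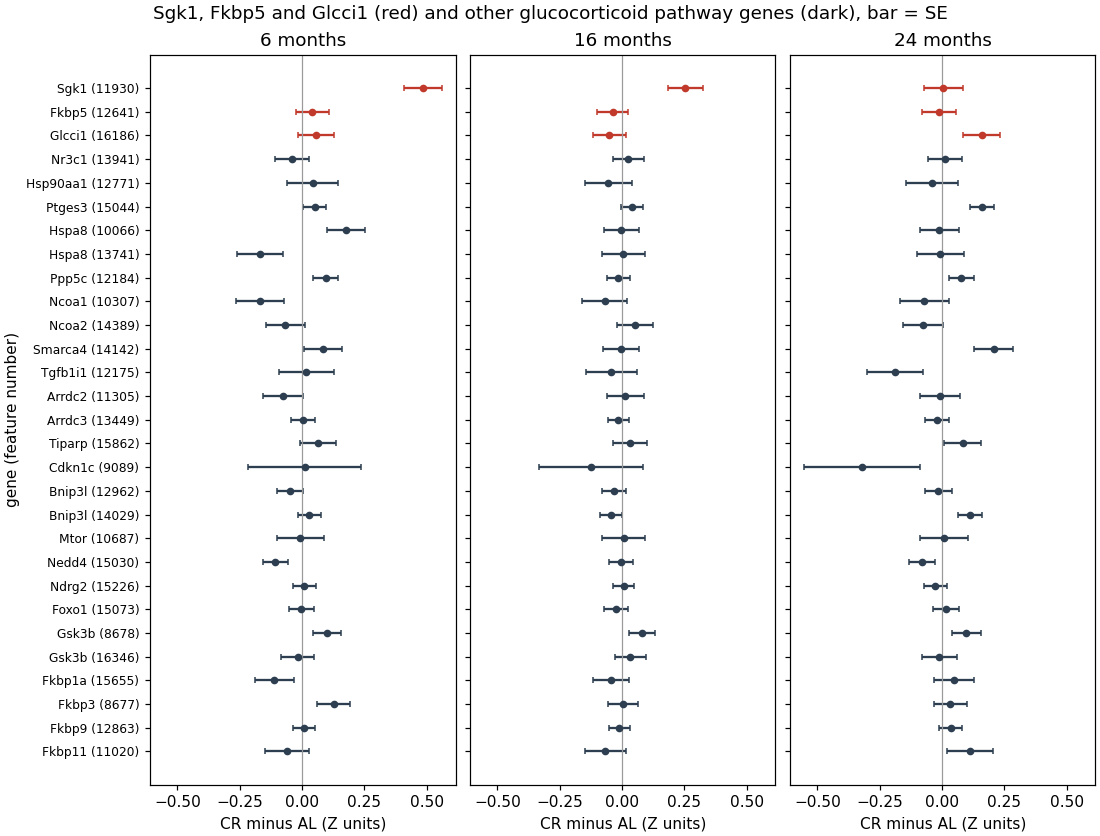
CR minus AL difference in Z units (x axis) with SE bars for the features of Sgk1, Fkbp5 and Glcci1 (red, top rows) and for the 26 other features of the glucocorticoid lists (dark), at 6, 16 and 24 months. Sgk1 stands to the right of every other feature shown at 6 months (0.483) and at 16 months (0.253), values that chose it, and at 24 months it lies at 0.00575.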

How the data were processed

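Spinal cord RNA of 65 mice was reverse transcribed with a radioactive nucleotide, hybridized to the B filter of the NIA mouse 17K cDNA array (1 filter per mouse), and quantified with ArrayPro. The authors turned the intensities of each array into a Z score, and the deposited numbers are this score. For the log base and the background correction, the methods were not given in the sources used, so differences are in Z units and not folds, and a change shared by most features cannot be seen. Arrays carry no depth, and their number limits the precision. Each mouse was a separate animal; mice were grouped by the labelled age, diet and sex, and the design text names 67 mice.

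Features were named through the platform annotation (4875 with 1 symbol, 224 with several, 3349 with none). limma (3.58.1, R 4.3.3) was fitted to 14 means of stage, diet and sex over all 65 arrays, with both sexes weighted equally in 8 contrasts and Benjamini-Hochberg adjustment over 8448 features at 0.05. Scripts were tested on simulated data. Permutation tests used 100000 resamples. Array runs were taken from the first principal component without arrays 31 to 33. The members and gene lists were chosen with earlier results of these data known. Named genes were the 3 members, list genes called in any contrast or with the 2 smallest p per list for CR against AL at each age, the 5 features most like each member, and up to 5 called features per contrast. Alternatives were leaving out arrays 31 to 33, the run as a covariate, rounds of arrays as a block, quantile normalization, centring on filter position, a mean Z above 0, leaving out an AL male of 24 months whose description differs from its title, leaving out each mouse, and the study's rule without its closing ANOVA. As applied, that rule took an average Z above 0, a z-ratio of at least 1.5 in size and a pooled-variance t-test at an unadjusted 0.05. The paper does not name the test behind its p-value. The first run alone was added after the data were seen.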

Additional observations from a re-analysis of the deposited data

Results flagged for a closer look

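In 1 of 21 sets (3 genes in 7 groups) a mouse lay far from the rest of its group by Dixon's criterion, which chance passes in about 5% of groups. The AL male replicate 5 of 6 months (array 33) had a Glcci1 Z score of -1.04, and the next lowest of the 10 AL mice of 6 months had -0.28, a gap of 0.76 of the whole range. The same array had the highest Sgk1 value (-1.10) and the lowest Fkbp5 value (-0.87) of its group.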

How the results depend on the processing

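The labels name no pairs of mice, so no paired analysis was run. Rounds of arrays, read from the order of the array numbers, were instead fitted as a block, which changed no count of calls other than that for sex. The signs of the Sgk1 differences at 6 and 16 months held under all 7 alternatives that keep the feature (0.478 to 0.559 and 0.239 to 0.262) and without any single mouse (0.454 to 0.524 and 0.217 to 0.293). A mean Z above 0, alone or in the study's rule, removes all 3 genes, so it gives no value for them. At 24 months the Sgk1 difference ran from -0.190 (first run only, chosen after seeing the data) to 0.0503, and was also below 0 with rounds as a block (-0.00119) and quantile normalization (-0.0101). The calls for CR at 6 months numbered 1 without arrays 31 to 33, with the run as a covariate, with position centring or in the first run only, 0 with a mean Z above 0 and 46 by the study's rule, and 1 to 5 without 1 mouse. Over the 3 ages they numbered 1 under the first 3 of these settings, under quantile normalization or without the array of differing description, 0 with a mean Z above 0 or in the first run only, 92 by the study's rule, and 1 to 2 without 1 mouse. The study's rule gave 83 at 16 months and 163 at 24 months for CR, 239 for 16 against 6 months, 91 for 24 against 16 months and 41 for sex. For 16 against 6 months the count was 0 with position centring, 2 with a mean Z above 0 and 3 to 147 without 1 mouse, and for sex it was 1 with position centring or rounds as a block. Among the diet differences, signs turned for Fkbp5 at 24 months (0.0202 with position centring, 0.0675 in the first run only) and over the 3 ages (0.00639 with quantile normalization, 0.0215 with position centring, 0.00361 in the first run only) and for Glcci1 at 6 months (-0.0558 without arrays 31 to 33, -0.0577 with the run as a covariate, -0.0588 in the first run only) and 16 months (0.0217 in the first run only). Elsewhere they turned for Glcci1 with position centring (16 against 6 months 0.0005, 24 against 16 months -0.00794), for Fkbp5 by sex in the first run only (-0.0156) and for the sex difference of the Sgk1 CR effect (0.00683 without arrays 31 to 33, 0.00555 with the run as a covariate, 0.0772 in the first run only). Without 1 mouse, signs turned for CR against AL in Sgk1 at 24 months (-0.0463 to 0.0587), Fkbp5 at 24 months (-0.0523 to 0.0210) and over the 3 ages (-0.0163 to 0.0110) and Glcci1 at 6 months (-0.0281 to 0.0882). They also turned for Fkbp5 between 16 and 6 months (-0.0213 to 0.0197) and by sex (-0.000806 to 0.0266) and for Glcci1 between 24 and 16 months (-0.00700 to 0.0213). The correlation of Sgk1 and Glcci1 was -0.224 and that of Fkbp5 and Glcci1 -0.154 without arrays 31 to 33. With the run as a covariate these were -0.185 and -0.226. The causes were not tested.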
